A study of Homo sapiens with 3 samples.

Results

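The regions described here are PHF13 peaks in PANC-1 cells that lay far from genes' start sites, shared nothing with EZH2 and carried an AP-1 site. A peak was taken when it had no base in common with any EZH2 peak, when its summit was more than 5 kb from every annotated transcription start site (TSS), and when the 200 bp centred on the summit held at least 1 exact AP-1 site of 7 bp, TGACTCA or its reverse complement TGAGTCA. Of the 19039 PHF13 peaks, 16809 shared no base with EZH2, 10304 of these were distal, and 1352 of the distal peaks held the site, which was 7.1% of the PHF13 list and 3.32% of the 40678 peaks of both lists. The members were thus chosen by the peak calls themselves and by sequence, so their enrichment values describe them and test nothing.

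PANC-1 is an established line from a human pancreatic ductal carcinoma. The cells were wild type with no listed treatment, and their chromatin, from a single plate, was fixed with EGS, a protein-to-protein crosslinker, followed by paraformaldehyde and formaldehyde. There was 1 library for each of the PHF13 antibody, the EZH2 antibody and the input, and no replicate. The 2 peak lists were analysed, and the input entered as their control. The lists hold no read totals, so the depth behind each peak was taken from the number of fragments at its summit. The EZH2 list, on which the absence of overlap and all distances to EZH2 rest, is in narrow-peak format although the methods describe broad peaks for EZH2. Intervals are 95% Wilson intervals for shares; they cover counting error only, and no p-value can be given for 1 library per antibody.

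AP-1 is a family of dimeric transcription factors built from FOS, JUN and related leucine-zipper proteins, and the palindromic site sought here is the one that FOS-JUN dimers prefer. AP-1 is known for binding enhancers, often beside lineage factors, and for driving genes of migration, matrix and growth-factor response in epithelial tumours. PHF13 is a PHD-finger protein that reads methylated histone H3, and EZH2 is the methyltransferase of the Polycomb repressive complex PRC2. No AP-1 protein was mapped in these libraries, so a site below is a match of letters and not a binding event.

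The sequences of the most enriched members show what was selected. Shown are the 10 single-copy members with the highest fold enrichment and the highest ones with 2 or more sites, each named by the nearest protein-coding TSS, on the plus strand of hg19, with the AP-1 sites in capitals. A sequence with 1 site has 61 bases around it; one with more sites runs 15 bases beyond the outer ones, a window widened after the sites were seen.
PCCA, chr13:101045135-101045211: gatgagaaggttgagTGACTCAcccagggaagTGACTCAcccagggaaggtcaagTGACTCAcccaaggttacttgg
TNRC6A, chr16:24712486-24712546: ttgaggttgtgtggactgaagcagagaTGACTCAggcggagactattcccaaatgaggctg
BACH2, chr6:91078869-91078918: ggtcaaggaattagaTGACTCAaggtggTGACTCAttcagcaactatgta
RGCC, chr13:42222565-42222625: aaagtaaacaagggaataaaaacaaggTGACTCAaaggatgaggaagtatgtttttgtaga
KCTD6, chr3:58457220-58457280: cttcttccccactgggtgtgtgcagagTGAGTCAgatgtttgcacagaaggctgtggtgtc
ARHGEF12, chr11:120302953-120303013: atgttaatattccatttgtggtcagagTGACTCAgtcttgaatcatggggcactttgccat
PBRM1, chr3:52705015-52705075: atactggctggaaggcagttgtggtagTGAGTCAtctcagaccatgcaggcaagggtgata
TGFB2, chr1:218550758-218550818: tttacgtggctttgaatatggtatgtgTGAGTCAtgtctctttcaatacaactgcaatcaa
KIF18A, chr11:28071043-28071103: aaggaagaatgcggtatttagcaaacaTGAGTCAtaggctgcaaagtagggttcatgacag
CBLN1, chr16:48995674-48995734: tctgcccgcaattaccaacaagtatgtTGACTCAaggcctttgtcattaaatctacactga
TCF7L2, chr10:114853393-114853463: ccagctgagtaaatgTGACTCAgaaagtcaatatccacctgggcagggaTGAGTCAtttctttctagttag
RASGRF1, chr15:79471558-79471632: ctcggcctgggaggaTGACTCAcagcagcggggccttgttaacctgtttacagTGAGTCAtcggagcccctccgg
The stretch in PCCA repeats TGACTCA 3 times, each time followed by ccca. The stretches near RGCC and RASGRF1 also hold a forkhead (FOX) motif, described below.

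These members were strong peaks for this list. The member in an intron of PCCA, which encodes a subunit of propionyl-CoA carboxylase, had the highest fold enrichment of all members, 9.98, from 61 fragments at the summit over a background of 5.21. It lay at chr13:101045087-101045361, 24452 bp from the TSS, and the nearest of its 3 sites was 12 bp from the summit. The fold here and below is the ratio of fragments to background after 1 is added to each. The member in an intron of TNRC6A, a scaffold of microRNA silencing, had a fold of 9.77 from 78 fragments, with its site 9 bp from the summit. The member nearest to BACH2, a leucine-zipper repressor, was intergenic and had a fold of 9.67 from 51 fragments, with 1 of its 2 sites 1 bp from the summit. The peak nearest to RGCC lay in an intron of VWA8 and had a fold of 9.54 from 54 fragments.

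The member in an intron of TGFB2, the gene of a TGF-beta ligand, stood on the most fragments of the first 10. Its summit held 83 fragments over a background of 8.94, a fold of 8.45 with a −log10 q of 45.7, at chr1:218550692-218550982 and 31243 bp from the nearest TGFB2 start. Its AP-1 site was 32 bp from the summit, and the nearest EZH2 summit was 212796 bp away. The members near KCTD6, ARHGEF12, PBRM1, KIF18A and CBLN1 had folds of 8.82, 8.73, 8.71, 8.42 and 8.19. ARHGEF12 encodes an exchange factor for RhoA, PBRM1 a subunit of the PBAF chromatin remodeller and KIF18A a mitotic kinesin. The next 5 members, nearest to RASAL2, PTGFRN, EXOC6, NR2F1 and PTBP2, had folds from 8.08 down to 7.84, and a member in an intron of FTO tied with the last of them at 7.84. None of the first 15 shared its nearest gene with another of them.

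Across all members the enrichment was modest. Fold enrichment over the local background had a median of 3.83 (interquartile range 3.36 to 4.59, full range 2.17 to 9.98), and the summits held a median of 24 fragments (interquartile range 20 to 30, full range 13 to 105) over a background of 5.40. The median −log10 q was 5.32. The 8952 PHF13-only distal peaks without the site had a median fold of 3.34, 19 fragments and a −log10 q of 3.15. In 719 members the −log10 q was 5 or more (53.2%, 95% interval 50.5 to 55.8), as it was in 18.3% of the peaks without a site (17.5 to 19.1). The members were also wider, with a median of 205 bp as against 177 bp. These values were not particular to the members. The 730 PHF13-only peaks within 5 kb of a TSS that held a site had a median fold of 3.775, 25 fragments and a −log10 q of 5.30. Their median width was 202.5 bp, and the −log10 q was 5 or more in 51.9% of them (48.3 to 55.5).

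Ordered by fold, the distal peaks held the site unevenly. The 7212 single-copy PHF13-only distal peaks, those whose sequence at the summit occurs once in the genome, were divided into 10 groups of nearly equal size. The share with an AP-1 site was between 7.35% and 10.4% in each of the 6 lower groups. It was 17.2% in group 7, 21.6% in group 8, 28.02% in group 9 and 50.3% (46.6 to 53.9) in group 10, the highest. The intervals of the 4 highest groups lay above those of the others.

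**Figure D1:**
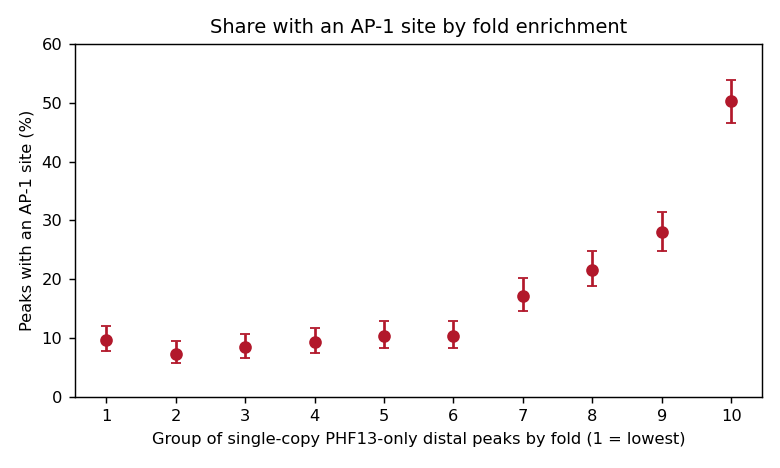
Share of single-copy PHF13-only distal peaks with an AP-1 site (y axis, percent) in 10 groups of these peaks ordered by fold enrichment (x axis, 1 is the lowest); points are shares and bars 95% Wilson intervals. The lower 6 groups sit at or below 10.4% and the highest reaches 50.3%.

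The site was concentrated at the summit. Counted over all 10304 PHF13-only distal peaks, AP-1 sites numbered 22.8 per 1000 peaks per 20 bp within 20 bp of the summit and 3.28 beyond 500 bp, a ratio of 6.94. The 6505 PHF13-only peaks within 5 kb of a TSS gave a ratio of 5.81, and the 10305 EZH2-only distal peaks gave 1.10. Accordingly, 13.1% of PHF13-only distal peaks (12.5 to 13.8) held a site, compared with 11.2% of those near a TSS (10.5 to 12) and 2.79% of EZH2-only distal peaks (2.49 to 3.12). Of the 1464 distal PHF13 peaks that shared sequence with EZH2, 19 held one (1.3%, 0.832 to 2.02). Over the whole PHF13 list the share was 11.2%. Windows of the same 200 bp placed 1000 bp to each side held a site in 3.70% of cases beside members (3.05 to 4.48). Beside distal peaks without a site they did so in 3.17% (2.93 to 3.44). Some members may thus hold a site that is as frequent away from summits, and which ones cannot be told.

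**Figure D2:**
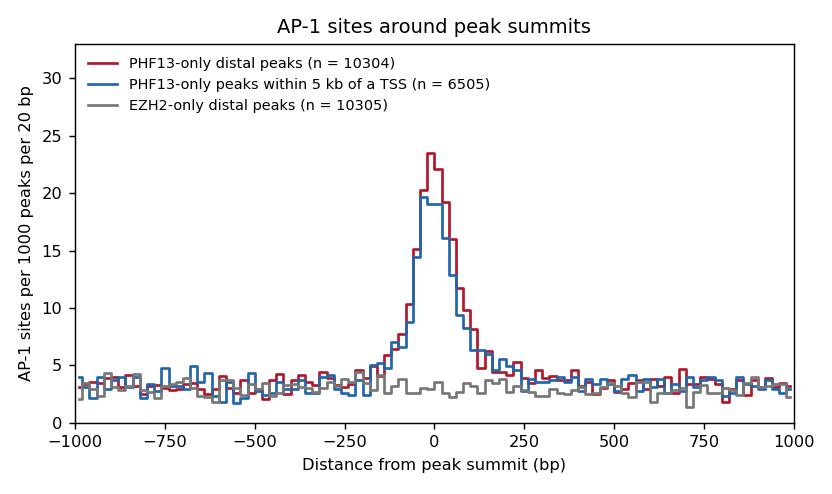
Number of AP-1 sites per 1000 peaks in bins of 20 bp (y axis) against distance from the summit in bp (x axis) for PHF13-only distal peaks, PHF13-only peaks within 5 kb of a TSS and EZH2-only distal peaks. Both PHF13 curves rise at the summit, to 22.8 and 19.1 within 20 bp, and the EZH2 curve stays near its level beyond 500 bp.

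Within the members, the nearest site was a median of 33 bp from the summit, measured to the centre of the site. In 536 members (39.6%, 37.1 to 42.3) it was within 25 bp. A single site placed evenly over the 194 possible positions of the window would fall there in 26.3% of cases, and the 1150 members with exactly 1 site gave 35.3% (32.6 to 38.1). The EZH2-only distal peaks that held a site gave 28.9% (24 to 34.4), with a median of 50 bp. The PHF13-only peaks within 5 kb of a TSS that held a site gave 41.2% (37.7 to 44.8), an interval that overlaps that of the members.

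The distance shrank with enrichment. In 4 groups of members of nearly equal size, from the lowest to the highest fold, the median distance was 43, 37, 30 and 26 bp, and the share within 25 bp was 29.9% (25.3 to 35.0), 36.7%, 43.4% and 48.7% (43.4 to 54). The median number of fragments at the summit also went up, from 19 through 21 and 26 to 35 over these groups. Members with more sites had higher median folds, as given below, and the nearest of several sites tends to lie closer than a single one. The groups were not divided by site number, and the part of either measure in the trend was not tested. Members in multi-copy sequence had their site within 25 bp in 29.2% of cases (21.4 to 38.5).

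**Figure D3:**
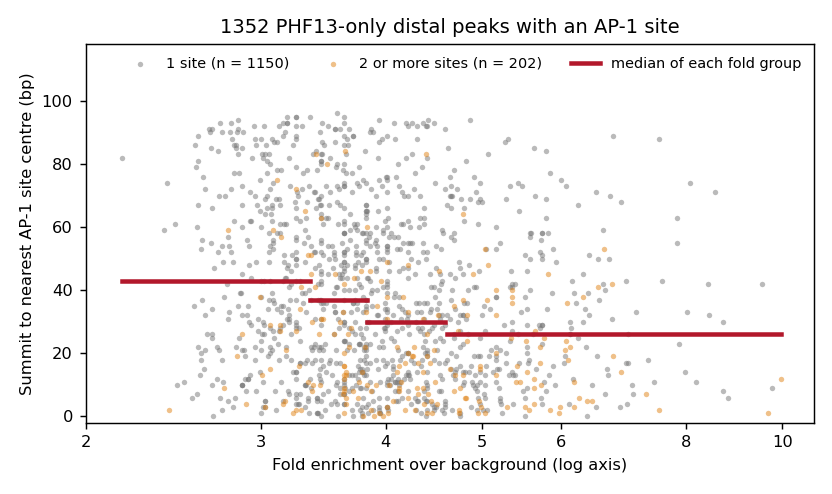
Each of the 1352 members by fold enrichment (x axis, log scale) and distance from the summit to the centre of the nearest AP-1 site in bp (y axis); grey points have 1 site, orange points 2 or more, and red lines give the median distance in each of 4 groups by fold. The red lines step down from 43 to 26 bp.

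Most members had a single site. There were 1150 with 1 site (85.1%), 178 with 2 sites (13.2%) and 24 with 3 or more (1.78%), and their median folds were 3.83, 4.16 and 4.31. Adjacent sites were a median of 34 bp apart from centre to centre, with a range of 7 to 180 bp over 233 pairs. No single spacing dominated, since the commonest, 23 bp, occurred 9 times. The member in TCF7L2, a transcription factor of Wnt signalling, whose sequence is shown above, had a fold of 7.51 from 58 fragments, and the site nearest its summit was 2 bp away. The member nearest to RASGRF1, an exchange factor for RAS, had a fold of 7.30 from 49 fragments.

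The bases beside the site differed from those at AP-1 sites at large. With the nearest site of each member read as TGACTCA, the base before it was T in 11% of members and in 26.4% of the 335987 distal AP-1 sites of the genome, and the base after it was A in 9.84% and 23.4%. A purine before together with a pyrimidine after was found in 557 members (41.2%, 38.6 to 43.8) and at 23.5% of the genome's distal sites. The reverse arrangement was found in 12.2% of members (10.6 to 14.1) and 26.7% of distal sites. The 9-base words ATGACTCAT and GTGACTCAT made up 11% and 11.7% of the members' sites as against 6.22% and 6.10%, whereas TTGACTCAA made up 1.63% as against 5.66%. The extended NF-E2 site GCTGAGTCA, preferred by dimers with small MAF proteins and containing the AP-1 site, was present in 129 members (9.54%, 8.09 to 11.2). It was not particular to them. Among peaks with an AP-1 site, it was in 86 of 730 PHF13-only peaks near a TSS (11.8%, 9.64 to 14.3). It was also in 28 of 287 EZH2-only distal peaks and in 220 of 2126 peaks of the whole PHF13 list. In all, the members held 1585 distinct AP-1 sites, which was 0.472% of the distal sites. The distal peaks without a site lacked only exact matches. Words 1 letter from TGACTCA occurred there, such as TGACTAA in 3.66% (3.29 to 4.07) and in 2.17% of windows 1000 bp to each side. Over such words the ratio of peaks to windows went from 0.799 for TGACTTA to 2.19 for TGACGCA.

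Other motifs were then counted in the same 200 bp, on both strands and as exact letters. None of the motifs named in this and the next paragraph can share more than 2 bases with an AP-1 site. The FOX motif TGTTTAC, bound by forkhead factors, was found in 131 members (9.69%, 8.22 to 11.4), in 4.26% of distal peaks without an AP-1 site (3.86 to 4.69) and in 3% of windows 1000 bp to each side of the members (2.42 to 3.71). The RUNX motif AACCACA was found in 124 members (9.17%, 7.75 to 10.8), in 6.11% of peaks without a site and in 3.51% of the flanking windows. The TEAD motif ACATTCC, bound by the partners of YAP, was found in 101 members (7.47%, 6.19 to 9), 4.80% of peaks without a site and 2.63% of flanks. Over all PHF13 peaks these shares were 4.45% for FOX, 5.28% for RUNX and 4.99% for TEAD.

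Restricted to single-copy peaks, the FOX share was 10.4% of members (8.78 to 12.2) and 5.25% of peaks without a site (4.71 to 5.84), the RUNX share 9.55% and 6.12%, and the TEAD share 7.95% (6.57 to 9.58) and 5.73% (5.17 to 6.35). The ETS motif ACAGGAA was in 7.54% of members (6.25 to 9.08) and 5.51% of peaks without a site (5.05 to 6), and among single-copy peaks its intervals overlapped, at 7.70% (6.35 to 9.32) and 6.64% (6.03 to 7.30). RUNX also stood lower in the near-TSS peaks with an AP-1 site, at 5.34% (3.93 to 7.22), an interval below that of the members, whereas FOX, at 7.95% (6.20 to 10.1), and TEAD, at 6.30% (4.76 to 8.30), overlapped with the members. The E-box CAGGTG of ZEB and SNAI repressors was common everywhere, in 16.6% of members (14.8 to 18.7), 19.6% of peaks without a site and 16.3% of flanks. The GATA motif AGATAAG was in 2.96% of members, 2.22% of peaks without a site and 3.07% of flanks. In the same order, the SP and KLF motif GGGCGGG was in 2.14%, 1.44% and 0.9985%, and the E-box CACGTG in 1.78%, 2.21% and 1.89%. The CRE, C/EBP, SMAD and NFI motifs were found in at most 3 members each.

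The FOX motif went up with enrichment among the members. It was present in 14 of 338 members in the lowest of the 4 groups by fold (4.14%, 2.48 to 6.83), then in 8.58% and 10.3%, and in 53 of 337 members of the highest (15.7%, 12.2 to 20). TEAD ranged from 5.03% (3.16 to 7.91) in the lowest group to 10.7% (7.82 to 14.4) in the highest, and RUNX from 7.40% to 11.6%, with overlapping intervals for both. ETS had no such order, with 7.69% in the lowest and 6.23% in the highest group. Distal peaks without an AP-1 site had lower folds than the members, and held FOX in 4.26%, RUNX in 6.11% and TEAD in 4.80%. Motifs were not counted by fold in those peaks, so the part of fold in the differences from the members was not tested.

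**Figure D4:**
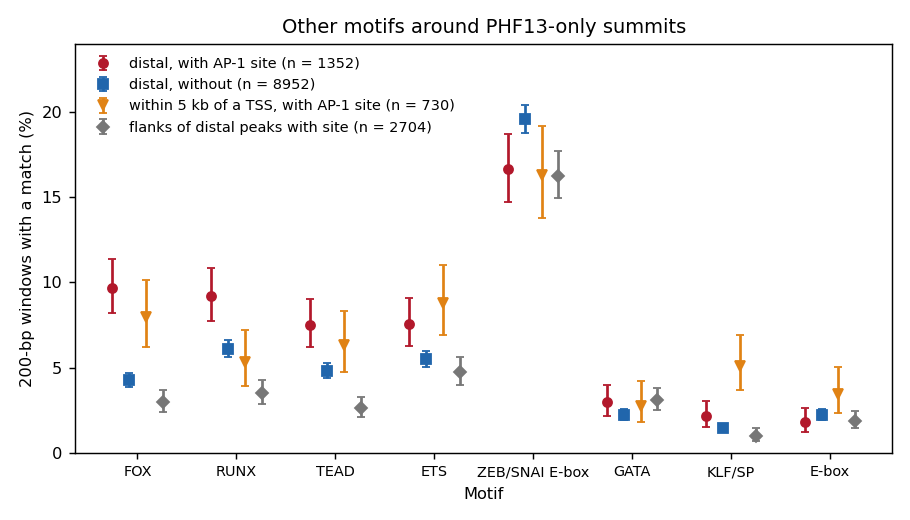
Share of 200-bp windows with a match to each motif (y axis, percent; bars are 95% Wilson intervals) for members, for PHF13-only distal peaks without an AP-1 site, for PHF13-only peaks within 5 kb of a TSS with a site, and for windows 1000 bp to each side of the members. FOX, RUNX and TEAD are highest in the members, whereas the ZEB/SNAI E-box is similar in the members and their flanks.

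The members lay mostly in single-copy, CpG-poor DNA. Only 106 members (7.84%, 6.52 to 9.40) were multi-copy, compared with 33.3% (32.4 to 34.3) of distal peaks without a site and with 8.36% (6.56 to 10.6) of the near-TSS peaks that held one. Put the other way, 17.3% of single-copy and 3.43% of multi-copy PHF13-only distal peaks held the site. GC content over 500 bp had the same median with and without a site, 44.4%, and the median CpG observed/expected ratio was 0.189 and 0.181. A CpG ratio of at least 0.6 occurred in 9 members (0.666%, 0.351 to 1.26), in 2.75% of distal peaks without a site and in 14.1% of all PHF13 peaks.

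They were intronic more often than the other distal peaks. The summit fell in an intron in 818 members (60.5%, 57.9 to 63.1), in an exon in 25 and between genes in 509, and the intron share of peaks without a site was 53.9% (52.9 to 55.0). Among single-copy peaks the intron shares were 61.6% (58.9 to 64.3) and 56.4% (55.1 to 57.6). The near-TSS peaks that held a site were like the members, with an intron share of 62.3% (58.8 to 65.8). The median distance to a protein-coding TSS was 41887 bp for members and 65979 bp for peaks without a site, and 54.2% (51.6 to 56.9) as against 43.0% (42 to 44) lay within 50 kb of one. RUNX1 held the most intronic members of any gene, with 5 beside 8 peaks without a site, followed by ABLIM1 with 4 beside 5 and THSD4 with 4 beside 8. These genes differ in length, at 1216.9, 336.9 and 686.4 kb as annotated, and the counts were not scaled by it.

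EZH2 was less often nearby. An EZH2 summit lay within 50 kb of 39.4% of members (36.8 to 42) and of 51.0% of peaks without a site (49.96 to 52), and the shares among single-copy peaks were 38.4% (35.8 to 41.2) and 47.4% (46.1 to 48.6). Within 10 kb the shares were 9.69% (8.22 to 11.4) and 19.2% (18.4 to 20.1). The median distance to the nearest EZH2 summit was 70010 bp for members and 48050 bp for the others. Both groups were chosen to share no base with EZH2, so that the difference between them is not part of the selection.

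The density of members differed between chromosomes. There were 0.773 members per Mb of sequenced bases on chromosome 20 and 0.708 on chromosome 10, but 0.176 on chromosome 4, 0.251 on chromosome 13 and 0.215 on chromosome 14. On these last 3 chromosomes all PHF13-only distal peaks were sparse, between 0.842 and 1.12 per Mb, while the share of them with a site was 20.9% (15.3 to 27.9), 23.3% (16.2 to 32.3) and 19.2% (12.6 to 28). Other chromosomes poor in members had lower shares: chromosome X had 0.166 members per Mb and a share of 9.06% (6.21 to 13), chromosome 9 had 0.225 and 11.5% (8.05 to 16.3), and chromosome Y had a single member among 35 peaks.

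Members lay near each other more often than other distal peaks lay near a member. Another member was within 12.5 kb of 99 members (7.32%, 6.05 to 8.84), and a member was within that distance of 2.89% of peaks without a site (2.57 to 3.26); among single-copy peaks the shares were 6.98% and 3.10%. Any other PHF13-only distal peak was also within 12.5 kb more often, for 23.4% of members (21.2 to 25.7) and 19% of the others (18.2 to 19.9). With only members of −log10 q 5 or more, the share with another member was 4.17% (2.94 to 5.89). That limit left 719 members, so fewer could lie near each other, and peaks without a site were not counted at it. For 21.4% of members (19.3 to 23.6) the nearest other PHF13-only distal peak also held a site, compared with 13.1% (12.4 to 13.8) of peaks without one. Linked at 12.5 kb, the members formed 48 pairs and 1 group of 3. The group of 3 lay in introns of MYOF, a membrane-repair protein of the ferlin family, at chr10:95218612-95235893, with folds of 4.84, 3.04 and 3.86. The strongest pair lay in TCF7L2, with folds of 5.97 and 7.51 and 2 sites in each peak; next came a pair near FGFBP3, a carrier of fibroblast growth factors, with folds of 6.23 and 4.83, of which the first is in sequence with 2 copies.

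Each member was assigned to the protein-coding gene with the nearest TSS, which names a neighbour and not a target. In total 1092 of 19794 protein-coding genes, 5.52%, were nearest to at least 1 member, and 4273, 21.6%, were nearest to at least 1 distal peak without a site. Of the former, 899 had a single member and 193 had more. There were 5 members each nearest to ABLIM1, MYC, NFATC2, RUNX1 and TOMM20, and 4 each nearest to BCL10, EGFR, ERRFI1, MBNL2, PHLDA1, TCF7L2 and TGFBR2. Distal peaks without a site were also assigned to these genes: 14 to MYC, 8 to EGFR, 6 to TGFBR2 and 5 each to ABLIM1, RUNX1 and ERRFI1, but only 1 each to NFATC2 and BCL10 and between 2 and 4 to the others. The counts for gene lists below are to be read against these background shares, and each is followed by the number of the list's genes nearest to a peak without a site.

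Among these genes, the 5 members of RUNX1, a transcription factor whose own motif was counted above, all lay in its introns, with folds of 4.40, 3.45, 3.74, 4.70 and 3.73. For ABLIM1, an actin-binding LIM protein, the folds were 3.87, 3.59, 3.08, 4.28 and 6.72. For MYC, the cell-growth regulator, 1 of the 5 members was strong, with a fold of 6.50 from 57 fragments at 439285 bp from the TSS, and the others had folds of 2.75 to 3.02. Both EGFR, the epidermal growth factor receptor, and ERRFI1, a feedback inhibitor of that receptor, had 4 members. The folds for EGFR were 2.78, 6.61, 2.83 and 3.50, of which the second lay 51489 bp from the TSS and the last 2 in EGFR introns. The folds for ERRFI1 were 2.62, 4.07, 3.603 and 3.4. Those for TOMM20, at 2.71 to 3.46, came from an intergenic stretch 129788 to 181227 bp from its TSS, and 1 of these 5 was multi-copy.

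Ligands, receptors and SMAD proteins of TGF-beta signalling were then counted as a group, since the cell system is used to study this pathway. Of 30 genes, 10 were nearest to a member (33.3%, 19.2 to 51.2) and 17 to a peak without a site. Ligands were TGFB2, described above, BMP2 with a fold of 4.21, BMP7 with 3.07 and INHBA with 3.90. The last 3 peaks were remote, at 446788, 199539 and 592803 bp from the TSS. The receptor gene TGFBR2 had 4 members, with folds of 4.68, 4.47, 4.04 and 5.74. The third lay in a TGFBR2 intron, and the 4 were 52753 to 264088 bp from the TSS. ACVR1 had 1, with a fold of 3.56. The signal transducer SMAD3 had 2, with folds of 3.78 and 3.15, and the inhibitory SMAD6 and SMAD7 had 1 each, with folds of 4.19 and 4.78. SMURF2, a ubiquitin ligase that acts on the receptors, had 1 with a fold of 4.29. The sites of the SMAD3 and INHBA members were at 0 bp from the summit in 1 peak each.

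Of the 18 regulators and markers of epithelial-mesenchymal transition (EMT), the conversion of epithelial into migratory cells, 8 were nearest to a member (44.4%, 24.6 to 66.3) and 9 to a peak without a site. TWIST2 had 2, the stronger with a fold of 6.63 from 51 fragments in its intron, and KLF4 had 1 with a fold of 6.34, 14495 bp from the TSS. SOX9 had 1 with a fold of 5.43, 30743 bp away, and CDH2, the N-cadherin gene, 1 with a fold of 4.21, 150908 bp away. The members of ZEB1, ZEB2, TWIST1 and PRRX1 were weak, with folds of 3.32, 3.06, 2.96 and 3.25 and 15 to 23 fragments. In the same order they lay 261856, 75381, 140033 and 32306 bp from the TSS. With a −log10 q of at least 3, only 4 of the 8 genes kept a member, and with an AP-1 window of 100 bp also 4.

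Growth-factor receptors, adhesion and matrix genes followed. Receptor tyrosine kinases and their ligands had 10 of 33 genes nearest to a member (30.3%, 17.4 to 47.3) and 18 nearest to a peak without a site, among the former EGFR, NRP1 with 3 members at folds of 5.55, 4.78 and 3.79, PDGFC with 5.74 and 3.44, and IGF1R with 5.29. Integrins and laminins had 6 of 30, and 14 near a peak without a site, with LAMC1 at a fold of 6.75, LAMB1 at 4.95, ITGA6 at 4.44 and ITGB6 at 4.56 and 3.78. Focal adhesion and actin genes had 6 of 33, and 13 near a peak without a site, with MICAL2 at 5.57 and LPP at 4.59; at ACTN4 the 2 members had the most fragments, 105 and 64, but low folds of 3.53 and 2.17. Matrix genes had 4 of 23, and 12 near a peak without a site, with TNC at 4.97 and COL5A1 at 4.02. These 2 peaks were 255347 and 28533 bp from the TSS. Extracellular proteases and inhibitors had 4 of 25, and 8 near a peak without a site, with MMP7 at 5.65.

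YAP, TEAD and their targets had 4 of 21, and 14 near a peak without a site, with TEAD1 at 5.31, 3.85 and 2.64. Pancreatic lineage factors had 3 of 25, and 9 near a peak without a site. The 3 were SOX9, NR5A2 at 4.22, 267978 bp from the TSS, and GATA6 at 3.25, 136991 bp away. The genes of AP-1 subunits themselves had 1 of 12, BATF3, at 3.29, and 4 near a peak without a site; the members closest to FOSB and JUN were 12020 and 56457 bp from their TSSs, with folds of 4.68 and 4.78, but were nearest to other genes. In a short list of 12 genes picked from those named in the study's text, CDH2 and SOX9 were nearest to a member and 6 to a peak without a site. None of 24 cytokine and inflammation genes was (upper bound 13.8%), although 6 of them were nearest to a peak without a site.

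To set aside how many peaks of any kind a gene has near it, the share with an AP-1 site was also taken among the single-copy PHF13-only distal peaks nearest to each list's genes. It was 17.3% over all 7212 peaks (16.4 to 18.2). It was 9 of 24 peaks at EMT genes (37.5%, 21.2 to 57.3), 10 of 31 at focal adhesion and actin genes (32.3%, 18.6 to 49.9) and 16 of 58 at receptor tyrosine kinases and ligands (27.6%, 17.8 to 40.2). Integrins and laminins had 7 of 28 (25%, 12.7 to 43.4), matrix genes 6 of 23 (26.1%, 12.6 to 46.5) and extracellular proteases and inhibitors 4 of 16 (25%, 10.2 to 49.5). TGF-beta signalling had 14 of 62 (22.6%, 14 to 34.4), YAP, TEAD and their targets 6 of 36 (16.7%, 7.87 to 31.9) and pancreatic lineage factors 3 of 26 (11.5%, 4 to 29). The lower bounds of the EMT and focal adhesion lists, 2 of the 12 lists, lay above the upper bound over all peaks. No test was made between lists, which were chosen with earlier results of these data known. The 9 EMT peaks with a site belonged to 8 genes, of which 4 kept a member at a −log10 q of at least 3. The 10 focal adhesion peaks with a site belonged to 6 genes. Peaks of one gene share its surroundings, so these intervals treat as separate what may not be.

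**Figure D5:**
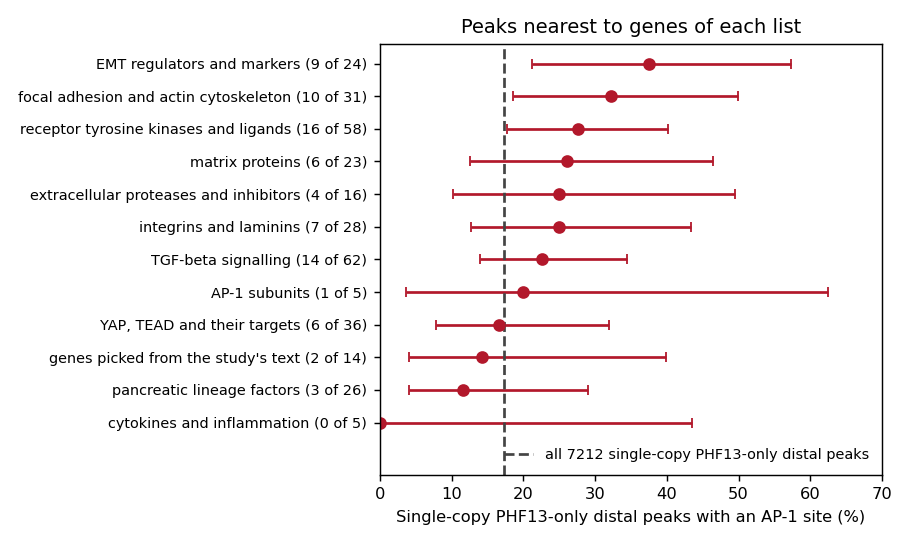
Share of single-copy PHF13-only distal peaks with an AP-1 site (x axis, percent) among the peaks nearest to the genes of each list (y axis, with counts); points are shares, bars 95% Wilson intervals, and the dashed line the 17.3% over all such peaks. The EMT list is highest at 37.5%, and most intervals include the line.

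The limits of the selection passed through a continuum of peaks. Just beyond the TSS limit were members nearest to BCL2L11 and BCL10, 5015 and 5023 bp from a TSS with folds of 3.11 and 3.69; just inside it, and therefore not members, were peaks nearest to DSCAM and TACC1, both at 4996 bp with folds of 4.02 and 3.63. The outermost sites that counted were those of members near ASB3 and FZD2, 96 and 95 bp from the summit with folds of 3.57 and 3.63, and peaks near FGF12 and TARS1, with sites at 97 bp, were not members at folds of 3.44 and 3.13. The members closest to an EZH2 peak lay near ZBTB40 and NUDT4B, with gaps of 37 and 51 bp.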

How the data were processed

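ChIP-seq peak lists for PHF13 and EZH2 in PANC-1 cells were used as deposited. According to the methods and the submitters' processing notes, the authors trimmed reads with Trim Galore 0.4.1, aligned them to hg19 with Bowtie2 2.4.1, discarded duplicates (Picard) and ran MACS2 2.2.7.1 with the input as control on 1 library per antibody. The deposited columns hold a score, a fold ratio at the summit, and p and q on the −log10 scale. The weakest deposited −log10 q for PHF13 was 1.3, looser than the limit in the methods, which equals a −log10 q of 3. Of the members, 1086 (80.3%) reached 3, as did 52.4% of the distal peaks without a site. The EZH2 list is narrow-peak although broad peaks are described.

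Summit fragments and background were solved from the fold and p (100% of peaks, relative error 0.0001). The fold was taken as fragments plus 1 over background plus 1. Positions were compared with GRCh37 and GENCODE release 44 mapped to it; the TSS of every transcript counted. Single-copy means that the median 24-mer of the 100 bp at the summit occurs once. Sites were exact matches. Genes were named by fixed rules: the 15 single-copy members of highest fold, the 2 highest per gene list, the top 3 clusters and the peaks beside each limit; genes with 4 or more members and further list members were added after their values were seen. The members and all gene and motif lists were chosen with earlier results of these data known. Scripts were tested on simulated data and run with Python 3.11.15, numpy 2.4.6, pandas 2.3.3, scipy 1.17.1 and numba 0.67.0.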

Additional observations from a re-analysis of the deposited data

How the results depend on the processing

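Each of 16 alternatives was applied on its own, and 79 of 103 values for the main quantities stayed within the reported interval, or within 1.5 times for counts. An AP-1 window of 100 bp gave 881 members, with 60.8% of sites within 25 bp, 63.1% in introns, 5.90% with a member within 12.5 kb and a median fold of 4.02. A window of 400 bp gave 29.98% within 25 bp, 10.2% multi-copy, 8.89% with a member within 12.5 kb and a median fold of 3.72. A −log10 q of at least 3 gave 1086 members, 42.7% within 25 bp and a median fold of 4.10. A −log10 q of at least 5 gave 719 members, 46.0% within 25 bp, 5.56% multi-copy, 4.17% with a member within 12.5 kb, 628 genes and a median fold of 4.54. A TSS limit of 10 kb gave 57.5% in introns and 5.79% with a member within 12.5 kb, and 1 start per gene gave 64.2% in introns. Other limits changed values by construction: sites within 10 bp, 17.8%; EZH2 within 10 kb, 9.69%; linking at 5 kb, 3.70%, and at 25 kb, 12.4%. The window also moved the share within 25 bp by construction, because sites that close to the summit count in every window and only the total changed. A q limit removes the weaker peaks, which bears directly on the median fold. Settings that left fewer members also left fewer to lie near each other. For the other values that the window, the q limit or the TSS limit moved, the cause was not tested. The share with any other motif, 46.3% as against 39.3% of peaks without a site, stayed within its interval throughout. No paired analysis was possible because each antibody has 1 library. Few fragments stand behind most peaks, so the lists say nothing of weaker sites.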
